A study of Bos taurus with 28 samples.

Results

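Estradiol was compared directly with progesterone in the liver of ovariectomized, dry Holstein cows, by setting the 7 arrays of estradiol-treated cows (E2T) against the 7 arrays of progesterone-treated cows (P4T), 14 of the 28 arrays of the series. Members were chosen by the treatment in the sample titles alone, and neither untreated arrays nor arrays of the combined treatment entered the comparison. E2T cows carried an intradermal ear implant releasing estradiol for 14 days. P4T cows carried vaginal progesterone devices for the same 14 days, although the source label of the P4T samples calls that exposure intradermal. Both groups were female, non-lactating and without ovaries, so the animals made no ovarian steroids of their own, and the labels give no age. Liver messenger RNA was measured with the Bovine GeneChip of Affymetrix. Its probe sets, each made of several short probes against a transcript, give a signal intensity, which is stated here on a log2 scale. The titles call the arrays of a group biological replications. Cows rotated through the treatments in a Latin square, and the labels tie no array to an animal or a period. By that design the same cows gave biopsies under both hormones, which the fit could not take into account, and p-values measure only the spread between these arrays.

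Both hormones bind nuclear receptors, but whether they act on the liver through them was not tested. Estradiol binds estrogen receptor alpha, and it is known to act on hepatic secreted proteins and, indirectly, through pituitary growth hormone. Progesterone has a classical receptor that liver cells hold at low levels, as well as membrane-associated binding proteins, and it is also a ligand of the xenobiotic sensor PXR. The liver is in turn where both steroids are hydroxylated, conjugated and cleared.

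E2T replicate 3 and P4T replicate 4 stood apart in control measures. The hybridisation spike-ins, bacterial transcripts added to each sample, averaged 15.64 on the log2 scale on E2T replicate 3 and 17.49 on P4T replicate 4, while no other of the 14 arrays exceeded 14.51. The array median was 8.22 on E2T replicate 3 and 8.78 on P4T replicate 4. The 3′ minus 5′ difference of the GAPDH control, which widens when transcripts are represented mostly by their 3′ ends, was 6.45 on E2T replicate 3 and 8.48 on P4T replicate 4, and at most 5.46 on the others. The same difference of the actin control did not set these arrays apart in this way. It was 4.73 on E2T replicate 3, below the 6.48 of E2T replicate 5, and 0.52 on P4T replicate 4, the lowest of the 14 arrays. For 15 array measures set E2T against P4T in an exact two-sided permutation test over 3432 splits, the smallest adjusted p was 0.792. Hepatocyte markers were among the brightest genes in both groups, albumin (ALB) averaging 17.23 in E2T and 17.19 in P4T. The level of the hepatocyte list averaged 15.41 ± 0.13 in E2T and 15.37 ± 0.12 in P4T (SD, n = 7 each). In a biopsy, fewer cells of a type and less RNA per cell cannot be told apart.

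**Figure D1:**
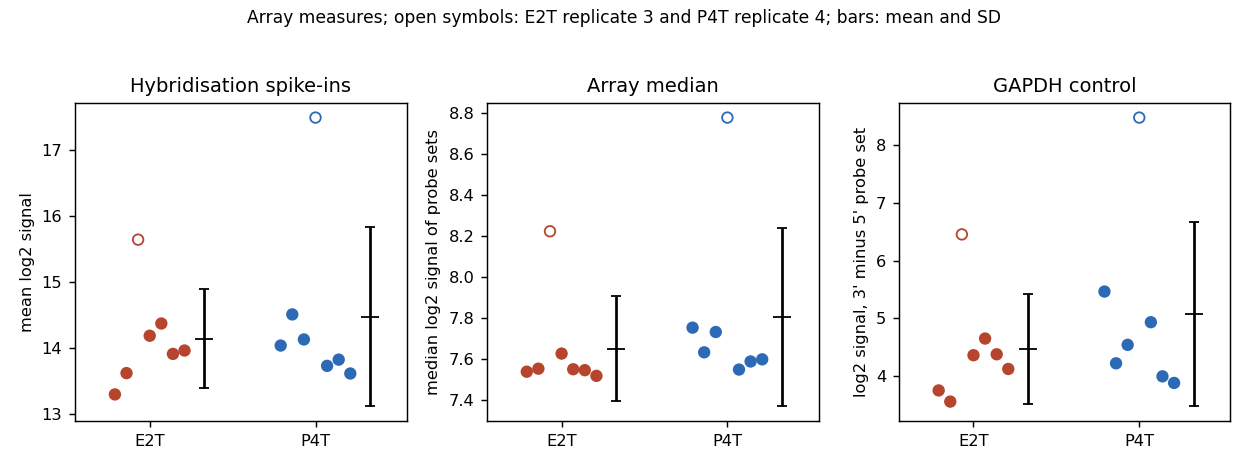
Mean log2 signal of the hybridisation spike-ins, median log2 signal of the probe sets, and log2 difference of the 3′ and 5′ GAPDH control probe sets on each E2T (left) and P4T (right) array, with mean and SD. The open symbols, E2T replicate 3 and P4T replicate 4, are the highest of their group in each panel, at 15.64 and 17.49 for the spike-ins.

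No probe set passed the test between estradiol and progesterone after adjustment. Of 24016 probe sets, 0 (0%) had an adjusted p under 0.05 with limma and the Benjamini-Hochberg method, and the smallest adjusted p was 1.00. At an unadjusted p under 0.05 there were 580 probe sets, or 2.42%, where an even spread of p would give 1200.8 in a bin of that width. Without moderated variances 625 probe sets had an unadjusted p under 0.05, and 0 passed after adjustment. With P4T replicate 4 left out, 564 probe sets had an unadjusted p under 0.05 and again 0 passed after adjustment. The plot of p over all probe sets shows this shortage of small values in both fits. Fold changes were therefore read as a description: a gene is written below as called higher or lower where its unadjusted p was under 0.05 and its fold change at least 1.25, which are the study's criteria for a contrast without its preceding test over all treatments.

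**Figure D2:**
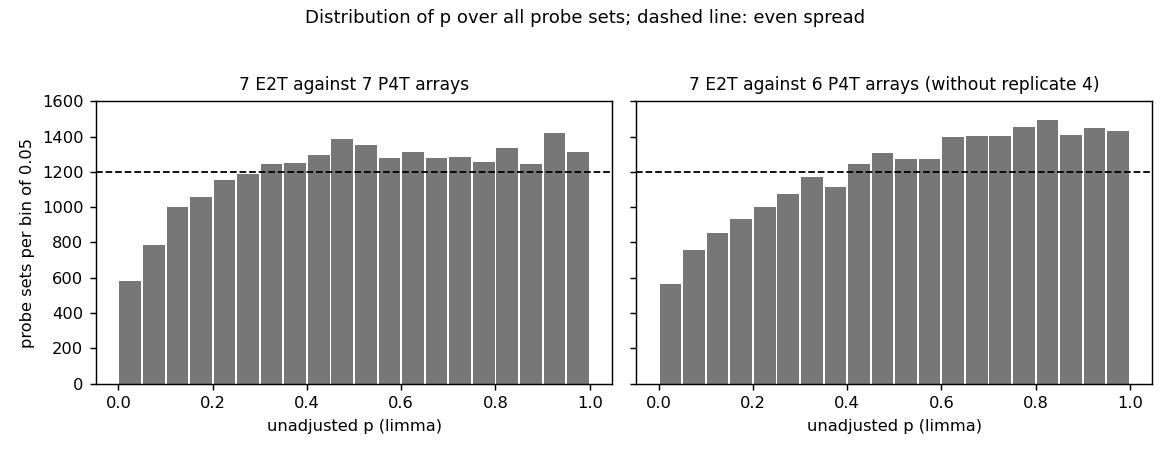
Probe sets per bin of 0.05 (vertical axis) against the unadjusted limma p (horizontal axis) for 7 E2T against 7 P4T arrays (left) and without P4T replicate 4 (right); the dashed line is an even spread. The lowest bin holds 580 probe sets on the left and 564 on the right, both below the line at 1200.8.

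Under these criteria 165 probe sets (0.687%) were called higher and 414 (1.72%) lower in E2T than in P4T. This split leaned on the arrays that stood apart and on the scaling. Without P4T replicate 4 it was 307 higher and 254 lower. With quantile normalization of the 14 arrays it was 296 higher and 335 lower, and with equal array medians 317 higher and 307 lower. Leaving out E2T replicate 3 gave 235 higher and 788 lower, and leaving out both arrays gave 328 higher and 533 lower. The median log2 fold change over all probe sets was -0.06, against -0.0041 without P4T replicate 4, 0.0051 with quantile normalization and 0.09 with equal array medians, which also moved the median over genes to 0.13, against -0.02 as deposited.

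Reduced to 1 probe set for each of 9155 gene symbols, 53 genes (0.579%) were called higher and 104 (1.14%) lower in E2T. Without P4T replicate 4 there were 91 (0.994%) higher and 66 (0.721%) lower. Quantile normalization gave 91 higher and 79 lower, equal array medians 97 higher and 66 lower, and leaving out E2T replicate 3 gave 92 higher and 225 lower. Of the first calls, 38 higher and 47 lower genes were called in the same direction in both fits, and 0 of the called genes changed sign. Most of the lower calls were genes of low signal: 90 of the 104 had a mean below the median gene level of 9.34. P4T replicate 4 had the highest P4T signal for 74 of the 104, or 71.2%, whereas it was the highest P4T array for 42.2% of all genes. Among genes below that level these shares were 74.4% of the lower calls and 56.0% of all such genes. A high P4T value also favours a lower call, so part of the excess is built in. Among genes above that level, 20 were called higher and 14 lower.

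Only 1 gene (0.0109%) had every E2T array below every P4T array, and 0 genes (0%) had every E2T array above. It was GCNT3, a glycosyltransferase that builds branched O-glycans, named here after its values were seen. Its log2 signal had a lowest, median and highest value of 2.29, 3.22 and 4.42 in E2T and of 4.44, 5.58 and 7.61 in P4T. The gap between the groups was narrow, and all values were in the low range of the array. GCNT3 has 2 probe sets, and only the brighter is given here. The log2 fold change was -2.38 ± 0.63 (SE), and -2.08 without P4T replicate 4. Without that array 1 gene (0.0109%) still lay wholly below the P4T arrays, again GCNT3, and 1 gene (0.0109%) lay wholly above. The second was BZW2, which is related to translation initiation factors, with 7.44, 7.89 and 8.18 in E2T against 6.37 to 7.24 on the other 6 P4T arrays and 7.93 on P4T replicate 4.

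The genes highest in E2T relative to P4T, among those with a signal at or above the median gene, were ordered by their unadjusted p. RASGEF1B, an exchange factor for small GTPases of the Ras family, came first. Its lowest, median and highest log2 signals were 10.92, 11.34 and 12.12 in E2T and 10.41, 10.63 and 11.22 in P4T. The groups overlapped, but all 7 E2T arrays were above the P4T mean. Its log2 fold change was 0.77 ± 0.20 (SE), or 1.71-fold, with an unadjusted p of 0.00102 and a limma adjusted p of 1.00. Without P4T replicate 4 it was 0.80 ± 0.20. A second RASGEF1B probe set of lower signal gave 0.35 ± 0.50.

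MAPK6, the atypical kinase ERK3, had lowest, median and highest values of 13.63, 13.91 and 14.02 in E2T and of 12.56, 13.47 and 13.66 in P4T. The low value of 12.56 was P4T replicate 4, and only P4T replicate 1 reached the 2 lowest E2T values. The log2 fold change was 0.49 ± 0.18, and 0.36 ± 0.13 without that array. RAD50, a subunit of the complex that holds broken DNA ends, had 11.70, 12.09 and 12.64 in E2T and 11.29, 11.55 and 11.85 in P4T, a log2 fold change of 0.49 ± 0.17. GANAB, the catalytic subunit of glucosidase II that trims glycans of new proteins in the endoplasmic reticulum, had 12.57, 12.84 and 13.16 in E2T and 12.18, 12.45 and 12.75 in P4T. Its log2 fold change was 0.42 ± 0.15, and 0.38 without P4T replicate 4. A second GANAB probe set of lower signal gave 0.14 ± 0.18. For RAD50 and GANAB the highest E2T array was replicate 3, and both log2 fold changes kept their sign with both odd arrays left out, at 0.34 and 0.33.

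TNC, tenascin C, an extracellular glycoprotein of tissue remodelling, had lowest, median and highest values of 9.86, 10.50 and 10.81 in E2T and of 5.96, 9.53 and 10.79 in P4T. The P4T low of 5.96 was replicate 4, and the other P4T arrays began at 8.55. The log2 fold change of TNC was accordingly 1.37 ± 0.48 with all arrays and 0.86 ± 0.27 without that array. The second TNC probe set, near the bottom of the signal range, gave -0.17 ± 0.69. NID2, a basement membrane nidogen, had a log2 fold change of 0.56 ± 0.24, and ACTA2, the smooth muscle actin of stellate cells and vessel walls, one of 0.59 ± 0.25. ACTA2 was no longer called without P4T replicate 4, at 0.52 ± 0.25. Of 13 measured stellate and fibroblast markers 1 was called, ACTA2 itself, beside 0.579% of all genes called higher. The mean level of these markers ranged from 8.54 to 8.90 in E2T and from 8.37 to 9.12 in P4T. The part of these cells in the result was not tested.

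G0S2, an inhibitor of adipose triglyceride lipase, had 11.03, 11.45 and 12.30 in E2T and 10.44, 11.05 and 11.60 in P4T. Here P4T replicate 4 was the highest P4T array, so that the log2 fold change was larger without it, 0.68 ± 0.21 against 0.57 ± 0.23. GPAM, the mitochondrial acyltransferase of the first step of triglyceride synthesis, had a log2 fold change of 0.46 ± 0.20, and FITM2, an endoplasmic reticulum protein of lipid droplet formation, one of 0.59 ± 0.24. Neither was called without P4T replicate 4, at 0.32 and 0.45. The list of lipogenesis and triglyceride handling as a whole did not lean to E2T: 8 of 27 measured genes were above 0 and 19 below, with a median of -0.07 beside -0.02 over all genes. GPAM was its 1 call, beside 0.579% of all genes called higher.

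The other genes of this group were ABHD1, an alpha/beta hydrolase family member (0.75 ± 0.25), ANK3, the membrane adaptor ankyrin G (0.57 ± 0.22), and PTGR2, a prostaglandin reductase (0.65 ± 0.25). SWAP70, a regulator of Rac signaling and the actin cytoskeleton, had a log2 fold change of 0.44 ± 0.18, and AK4, a mitochondrial adenylate kinase, one of 1.00 ± 0.41. All 15 genes were called with all arrays and with quantile normalization, and 10 of the 15 without P4T replicate 4. In each of the 15 the groups overlapped.

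Among the genes lower in E2T, HAPLN3, a link protein of hyaluronan and proteoglycans, had the smallest p. Its lowest, median and highest log2 signals were 8.72, 9.35 and 9.99 in E2T and 9.48, 10.05 and 10.76 in P4T. All 7 E2T arrays lay below the P4T mean, with overlap between. The log2 fold change was -0.78 ± 0.24, with an unadjusted p of 0.0044 and a limma adjusted p of 1.00, and -0.71 ± 0.24 without P4T replicate 4.

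IGFBP2, a liver-secreted protein that binds insulin-like growth factors and is known to be repressed by growth hormone and insulin, was lower in E2T by an amount that depended on P4T replicate 4. Its lowest, median and highest values were 10.11, 11.25 and 12.28 in E2T and 9.80, 12.58 and 13.19 in P4T. The lowest value of each group came from the array that stood apart, E2T replicate 3 and P4T replicate 4. The other 6 P4T arrays lay between 12.10 and 13.19, and 1 of 7 E2T arrays exceeded the lower of these bounds. With all arrays the log2 fold change was -0.91 ± 0.42, 1.88-fold lower in E2T, with an unadjusted p of 0.0454. Without P4T replicate 4 it was -1.32 ± 0.29, 2.49-fold lower, with an unadjusted p of 0.00018 and a limma adjusted p of 1.00. Without both arrays it was -1.11. With quantile normalization of all 14 arrays it was -0.86, with an unadjusted p of 0.084, and the gene was then not called. IGFBP2 is also one of the genes that the study named from these samples, so its direction is not independent evidence.

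A pair of mitochondrial amino acid enzymes was lower in E2T in both fits. HOGA1, the aldolase of hydroxyproline breakdown, had 10.996, 12.01 and 12.34 in E2T and 11.94, 12.29 and 13.16 in P4T. Its log2 fold change was -0.57 ± 0.21, and -0.61 without P4T replicate 4. OAT, ornithine aminotransferase, had 11.20, 12.68 and 12.94 in E2T and 11.98, 13.12 and 14.55 in P4T. The E2T values of OAT fell into a low set of 3 arrays and a high set of 4, and 0 of 7 exceeded the P4T mean. Its log2 fold change was -0.82 ± 0.36, and -0.999 ± 0.34 without P4T replicate 4. The 36 measured genes of the urea cycle and amino acid catabolism, a list that holds neither, had 14 above and 22 below 0, with 0 called and a median of -0.04, or 11 above, 25 below and a median of -0.13 without that array.

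Leukocyte genes were among the lower calls as well. ITGB2, the beta chain of the leukocyte integrins, had 9.33, 9.74 and 10.42 in E2T and 9.89, 10.26 and 10.39 in P4T, with a log2 fold change of -0.42 ± 0.18 and -0.47 ± 0.17 without P4T replicate 4. PILRA, an inhibitory receptor of myeloid cells, had a log2 fold change of -0.42 ± 0.19. With quantile normalization neither was called. Of 12 measured Kupffer and myeloid markers, 7 were below 0 with all arrays and 10 without P4T replicate 4, and 0 were called in either fit. Their mean level ranged from 10.15 to 11.21 in E2T and from 9.96 to 11.14 in P4T. Of 13 lymphocyte markers 9 were below 0, and of 13 endothelial markers 10 were below 0, with a median of -0.18 for the endothelial list. The part of these cells in the lower calls was not tested.

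The remaining genes of the lower group had small differences. They were the lipid kinase PI4KB (-0.43 ± 0.19), the Polycomb-associated PHF1 (-0.50 ± 0.22), the dystrobrevin DTNB (-0.48 ± 0.22), the nuclease subunit SLX1A (-0.48 ± 0.22) and TMEM101 (-0.42 ± 0.19). KLHL13, an adaptor of a ubiquitin ligase, had a log2 fold change of -0.39 ± 0.19, and COMMD1, a regulator of copper transport, one of -0.41 ± 0.20. RTN1, a reticulon of the endoplasmic reticulum, completed the 15 at -0.36 ± 0.17 without being called, since its unadjusted p was 0.0507. THRA, the thyroid hormone receptor alpha, had 9.80, 10.56 and 11.01 in E2T and 10.54, 10.84 and 11.40 in P4T, a log2 fold change of -0.43 ± 0.20. Other probe sets of lower signal gave -0.13 and -0.19 for TMEM101, -0.23 for COMMD1 and 0.35 for DTNB. Those of PHF1 gave -1.56 and -0.46. Of these 15 genes 14 were called, 9 with quantile normalization and 7 without P4T replicate 4.

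**Figure D3:**
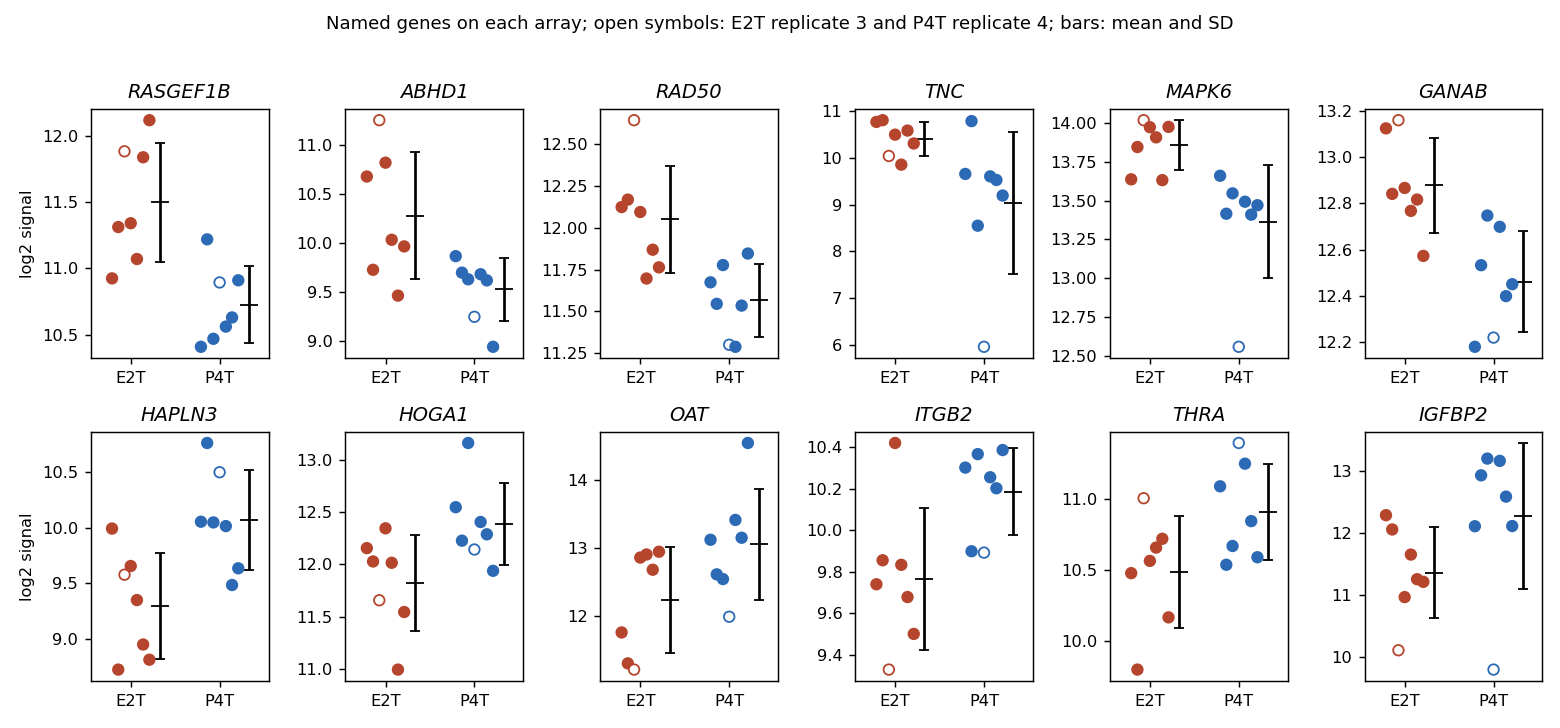
Log2 signal of 6 genes higher and 6 genes lower in E2T (left in each panel) than in P4T (right), with every array as a point and the mean and SD beside it. The groups overlap in each panel, and the open P4T symbol, replicate 4, is the lowest P4T value for TNC at 5.96, MAPK6 at 12.56 and IGFBP2 at 9.80.

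Leaving out P4T replicate 4 brought other genes into the same ranking, and these are named after their values were seen. Of the 15 genes with the smallest p in each direction, 10 of the higher and 7 of the lower were shared with the ranking of all arrays. The added higher genes were KIAA2012 (0.39 ± 0.16), DEPDC7 (0.42 ± 0.17), the transcription factor MGA (0.56 ± 0.23), the Golgi tether GOLGA4 (0.50 ± 0.21) and the galectin LGALS8 (0.42 ± 0.18). SERPINA6, the corticosteroid-binding globulin that also carries progesterone in blood, headed the added lower genes. Its lowest, median and highest values were 10.48, 11.94 and 13.11 in E2T and 10.91, 12.61 and 13.45 in P4T, the P4T low being replicate 4. The log2 fold change of SERPINA6 was -0.57 ± 0.35 with all arrays and -0.84 ± 0.29 without that array. S100A10, the annexin A2 partner, was at -0.19 ± 0.52 with all arrays and at -0.76 ± 0.28 without it, and FUBP3 was at -0.03 ± 0.38 and -0.45 ± 0.18. The kinase genes MAP2K6 (-0.47 ± 0.20) and AKT2 (-0.59 ± 0.25), the peroxiredoxin PRDX6 (-0.41 ± 0.18), the myosin MYO1D (-0.44 ± 0.20) and AIF1L (-0.92 ± 0.43) were lower without that array as well, with limma adjusted p of 1.00 throughout. Other probe sets of lower signal, again without that array, gave 0.15 and -0.92 for AKT2 and -0.15, 0.54 and 0.21 for PRDX6. They gave 0.14 for GOLGA4, 0.22 for MGA, -0.56 for S100A10, and -0.37 and -0.95 for FUBP3.

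None of the receptors for the hormones themselves was called. ESR1, estrogen receptor alpha, had lowest, median and highest values of 2.14, 3.25 and 5.02 in E2T and of 3.12, 4.52 and 6.95 in P4T, all near the bottom of the signal range. The log2 fold change of ESR1 was -1.34 with a 95% interval of -2.92 to 0.23. PGR, the nuclear progesterone receptor, had 4.27, 6.15 and 8.07 in E2T and 4.33, 5.82 and 8.99 in P4T, and its highest value in each group came from the array that stood apart. PGRMC1, a membrane-associated progesterone binder, was bright in both groups, with medians of 14.02 in E2T and 13.61 in P4T. Its log2 fold change was 0.23 (interval -0.43 to 0.89), and -0.03 without P4T replicate 4. Of 6 measured steroid receptors and progesterone binders 0 were called, with 1 above and 5 below 0.

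Growth hormone and prolactin signaling gave 12 measured genes, 7 above and 5 below 0, with 0 called and a median of 0.03. GHR, the growth hormone receptor, had a log2 fold change of 0.34 (interval -0.46 to 1.13) at its brightest probe set, and the 10 others, all of lower signal, ran from -2.09 to 0.60. SOCS2, a growth hormone-induced inhibitor of that receptor, had 9.16, 12.75 and 13.36 in E2T and 10.04, 11.48 and 13.39 in P4T. The lowest E2T and the highest P4T value were again the arrays that stood apart. Its log2 fold change was 0.61 ± 0.54 with all arrays, 0.92 ± 0.51 without P4T replicate 4 and 1.42 without both, and it was not called with all arrays or without P4T replicate 4. PRLR, the prolactin receptor, was at 0.57 ± 0.45 with all arrays and 0.07 ± 0.22 without P4T replicate 4, where its signal was 5.92 and the other P4T arrays began at 9.14.

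Among 14 measured IGF ligands, binding proteins and receptors, 8 were above and 6 below 0. IGFBP2 was the 1 call, beside 1.14% of all genes called lower. IGF1, the circulating growth factor made by the liver, had 8.98, 9.79 and 10.19 in E2T and 9.17, 9.49 and 10.59 in P4T, a log2 fold change of 0.02 with an interval of -0.48 to 0.53. The highest P4T value of IGF1 was replicate 4. Without it the log2 fold change was 0.19 (interval -0.22 to 0.61), and the 3 other IGF1 probe sets, at 0.38 to 0.52 with all arrays, had larger values of 0.70 to 0.95. IGFBP3, the main carrier of IGF1 in blood, and IGFALS, the third subunit of that complex, were at 0.44 and 0.37, and IGFBP1 was at -0.22, none of them called.

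Estrogen-responsive secreted proteins held no call with all arrays, with 13 of 21 measured genes above and 8 below 0 and a median of 0.03. AGT, angiotensinogen, had 13.80, 14.59 and 14.72 in E2T and 13.86, 14.40 and 14.96 in P4T, a log2 fold change of -0.02 (interval -0.47 to 0.42). SERPINA7, thyroxine-binding globulin, was at 0.11 (interval -0.30 to 0.52). Of the steroid-metabolizing genes, CYP3A28, a bovine CYP3A enzyme, was at -0.06 (interval -0.51 to 0.38), CYP2C87 at -0.22 (interval -0.89 to 0.45) and HSD17B2, which oxidizes estradiol to estrone, at 0.01 (interval -0.53 to 0.56). SULT1E1, estrogen sulfotransferase, had 7.09, 9.02 and 10.32 in E2T and 6.83, 8.29 and 9.32 in P4T, a log2 fold change of 0.56 with an interval of -0.40 to 1.52. The intervals of SULT1E1, PRLR, SOCS2, GHR and PGR reached above 1, so that they include a 2-fold higher level in E2T. Those of ESR1, IGFBP2 and PGR reached down to -2.92, -1.79 and -1.53, so that they include a 2-fold lower level. CYP3A4 matched no symbol in the annotation of the array and is not given.

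**Figure D4:**
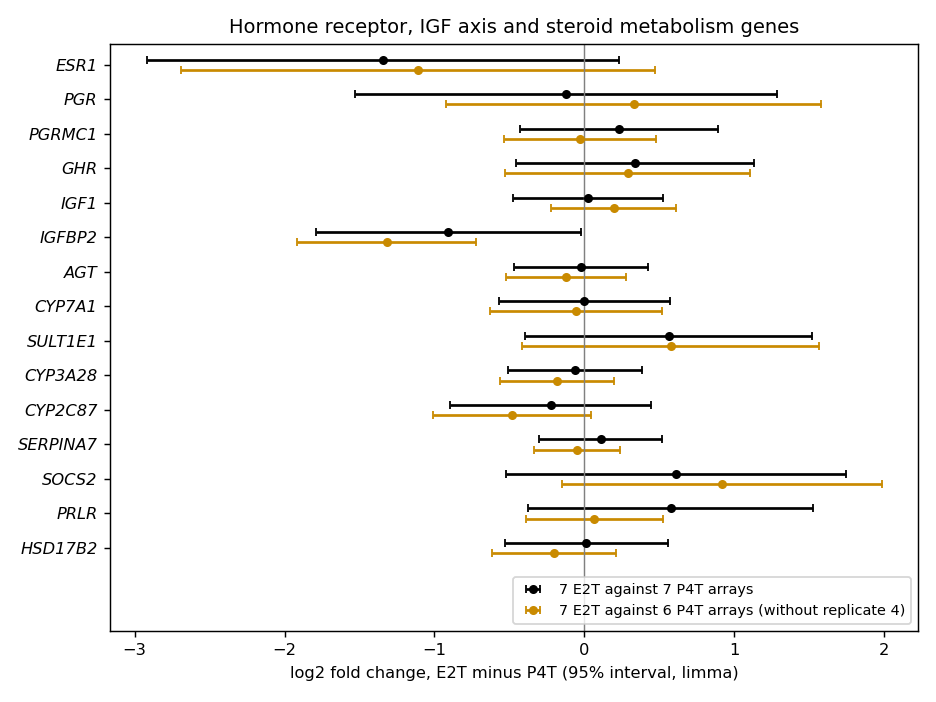
Log2 fold change, E2T minus P4T, with its 95% limma interval for 15 genes of hormone receptors, the IGF axis and steroid metabolism, with all arrays (black) and without P4T replicate 4 (orange). The interval of IGFBP2 excludes 0 in both fits, at -0.91 and -1.32, and that of every other gene in the plot includes 0.

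The bile acid and cholesterol lists had medians of 0.06 and 0.07, and of -0.0072 and -0.04 without P4T replicate 4. CYP7A1, the rate-limiting enzyme of bile acid synthesis, had 12.46, 13.24 and 14.12 in E2T and 12.73, 12.95 and 14.19 in P4T, and its mean was 13.27 in each group, with an interval of the difference from -0.57 to 0.57. SLC51A, a subunit of the basolateral bile acid exporter, was the 1 called of 14 measured genes of bile acid synthesis and transport, beside 0.579% of all genes called higher. Its lowest, median and highest values were 3.46, 5.70 and 8.28 in E2T and 1.68, 3.20 and 5.02 in P4T, all low, with a log2 fold change of 1.84 ± 0.78. Of 24 cholesterol genes 16 were above 0 and 8 below, or 10 above and 14 below without P4T replicate 4, with 0 called in either fit. INSIG1, which restrains sterol synthesis, was at -0.51 ± 0.28.

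Of 22 measured genes of endoplasmic reticulum folding and stress, 21 were above 0 and 1 below, with a median log2 fold change of 0.23, beside 4214 above and 4941 below 0 and a median of -0.02 over all genes. None was called, against 0.579% of all genes. CALR, a chaperone of glycoproteins, was at 0.53, HSPA5, the chaperone BiP, at 0.23, PDIA3, a disulfide isomerase, at 0.30, and ERO1A, which drives disulfide formation, at 1.04 ± 0.51 and called higher with quantile normalization. ERO1A had a low mean signal of 6.09. Without P4T replicate 4, 19 of the 22 were above 0 and the median was 0.14, with HSPA5 at 0.18 and CALR at 0.31. With both arrays left out the median was 0.18.

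For other lists, large ones among them, the lean to E2T shrank or turned without P4T replicate 4. Of 38 measured genes of oxidative phosphorylation complexes II to V, 32 were above 0 with all arrays (median 0.20) and 11 without P4T replicate 4 (median -0.04). The 37 complex I genes gave 31 (median 0.14) and 13 (median -0.04). NDUFA7, a complex I subunit, was the 1 call at 0.43 ± 0.20 with all arrays, beside 0.579% of all genes called higher. It was not called without that array. Of 62 cytosolic ribosomal protein genes, 51 were above 0 with all arrays and 7 without it, with medians of 0.11 and -0.06. RPL37 was the 1 called ribosomal gene, at 1.49 ± 0.68, beside 0.579% of all genes called higher. Its probe set was of low signal, with medians of 5.74 in E2T and 4.02 in P4T. Of 31 proteasome subunits 30 were above 0 with all arrays and 18 without that array, with medians of 0.17 and 0.04, a smaller lean in the same direction. With E2T replicate 3 left out as well, the medians were 0.09 for complexes II to V and 0.06 for complex I. They were then -0.02 for ribosomal proteins and 0.14 for the proteasome, so the direction depended on both odd arrays. Across the 39 lists the sign of the median differed between all arrays and the fit without P4T replicate 4 in 18.

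**Figure D5:**
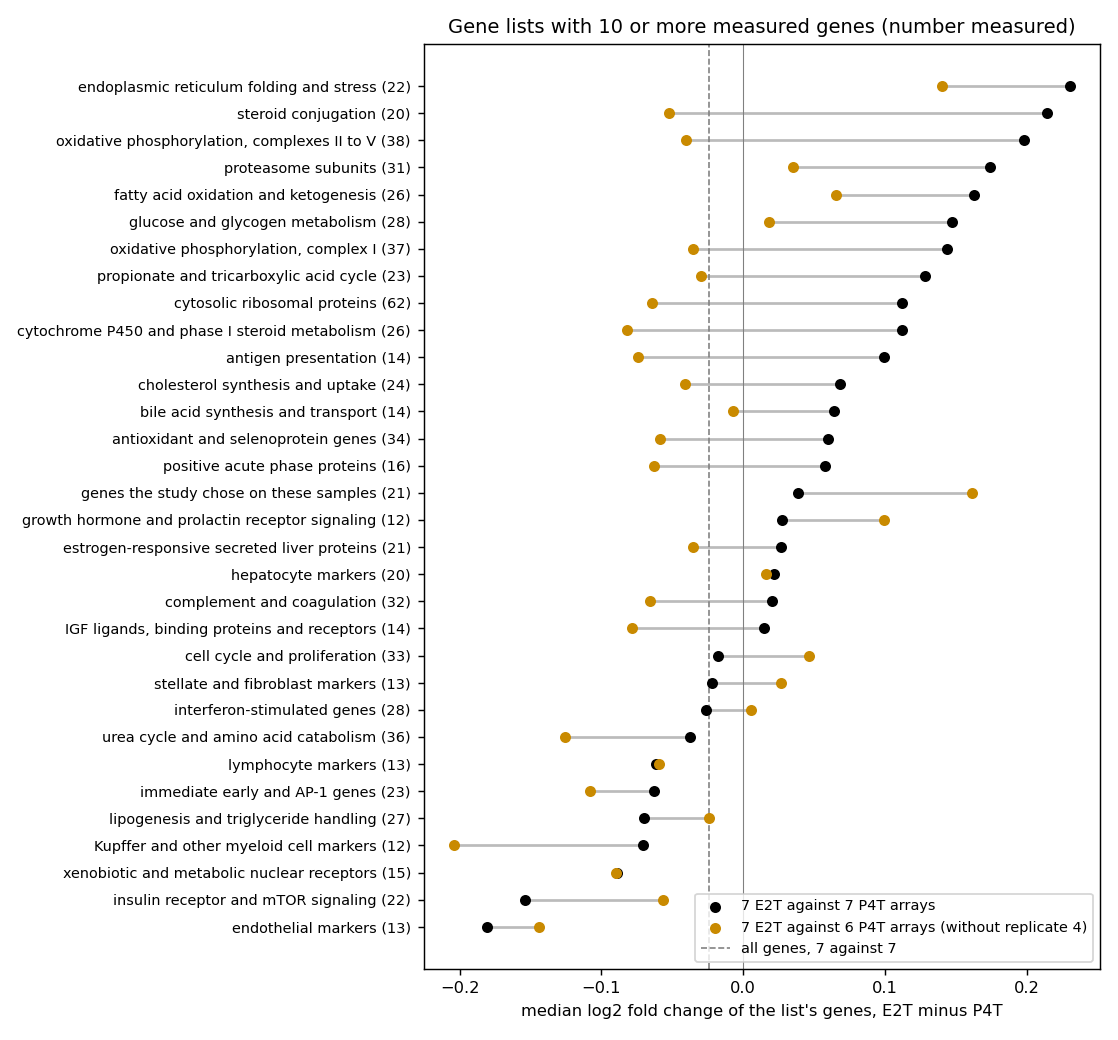
Median log2 fold change, E2T minus P4T, of the measured genes of each list with 10 or more of them (number in brackets), with all arrays (black) and without P4T replicate 4 (orange). The list of endoplasmic reticulum folding and stress lies furthest to the right among all-array medians, at 0.23 and 0.14, and the dashed line is the median of all genes; several lists cross 0 between the fits, such as cytosolic ribosomal proteins at 0.11 and -0.06.

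Energy and fuel lists leaned to E2T with all arrays and less or not at all without P4T replicate 4. Of 26 genes of fatty acid oxidation and ketogenesis 19 were above 0 (median 0.16), and 16 without that array (median 0.07). Its member with the largest test statistic was ANGPTL4, an inhibitor of lipoprotein lipase, at 0.99 ± 0.51 with all arrays and 0.43 ± 0.25 without it. Of 28 glucose and glycogen genes 20 were above 0, and 14 without that array, with PHKA2, a phosphorylase kinase subunit, at -0.35 ± 0.19. Of 23 genes of propionate use and the tricarboxylic acid cycle 17 were above 0, and 10 without that array, with the isocitrate dehydrogenase subunit IDH3A at 0.63 ± 0.39 and 0.25 ± 0.24. In the steroid lists, cytochrome P450 and phase I genes gave 19 of 26 above 0 and 7 of 26 without the array, and conjugation genes 14 of 20 and 7 of 20. Their leading members were the reductase DHRS4 at 0.22 ± 0.20 and UGDH, which makes the sugar donor of glucuronidation, at 0.50 ± 0.34. With both odd arrays left out the medians were 0.10 for fatty acid oxidation, 0.09 for glucose and 0.08 for propionate and the tricarboxylic acid cycle. They were -0.05 for phase I genes and 0.08 for conjugation genes. None of the genes of these 5 lists was called with all arrays or without P4T replicate 4.

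Other lists held single calls or none. BIRC5, survivin, was the 1 called of 33 cell cycle genes with all arrays, at -0.97 ± 0.41, beside 1.14% of all genes called lower, whereas without P4T replicate 4 the cell cycle calls were CCNB1, PLK1 and RRM2, all below the median gene in signal and higher in E2T at 1.60, 0.94 and 1.20, beside 0.994% of all genes called higher. The antioxidant list of 34 genes had 1 call with all arrays, the extracellular superoxide dismutase SOD3 at -1.28 ± 0.61, beside 1.14% of all genes called lower. A second SOD3 probe set of lower signal gave -0.24 ± 0.70. Without P4T replicate 4 the antioxidant list had 2 genes called lower, beside 0.721% of all genes. Of 23 immediate early genes 0 were called, JUNB being at -0.51 ± 0.25, and of 28 interferon-stimulated genes 0 were called, IFIT5 being at 0.38 ± 0.25. Acute phase genes and those of complement and coagulation had medians of 0.06 and 0.02 with all arrays. Without P4T replicate 4 the medians were -0.06 and -0.07, with 5 above and 11 below 0, and 9 above and 23 below. The leading members were APCS, serum amyloid P, at 0.44 ± 0.41 and C8G, a complement subunit, at -0.26 ± 0.16. Among the remaining leading members, AKT2, the insulin-regulated kinase, was at -0.52 ± 0.26, the clock gene PER2 at -0.41 ± 0.22 and the apolipoprotein APOA1 at 0.33 ± 0.18, none called with all arrays.

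The other lists without a call with all arrays had these members with the largest test statistic. SH2B1, an adaptor of growth hormone signaling, was at -0.44 ± 0.26, the branched-chain aminotransferase BCAT2 at -1.24 ± 0.70, and COX8B, a cytochrome oxidase subunit, at -0.29 ± 0.16. A second COX8B probe set of lower signal gave -1.65 ± 0.65, which taken alone meets the criteria of a call. The proteasome ATPase PSMC4 was at 0.39 ± 0.25, the coregulator BCAS3 at -0.29 ± 0.24 and B2M, the light chain of class I antigen presentation, at 0.26 ± 0.29. Among cell type markers, STAB2 of sinusoidal endothelium was at -1.16 ± 0.70, PRF1 of cytotoxic lymphocytes at -0.40 ± 0.21, AIF1 of macrophages at -0.19 ± 0.16 and S100A12 of neutrophils at -0.24 ± 0.25. KRT19 of bile ducts was at 0.37 ± 0.34, EPB42 of red cells at -1.44 ± 0.77 and SLC12A1, a kidney transporter, at -1.26 ± 0.67. STAB2, EPB42, SLC12A1 and BCAT2 had low mean signals of 5.70, 5.46, 5.77 and 6.29. None of these genes was called at its brightest probe set with all arrays or without P4T replicate 4. SLC12A1 ran against its list: of 8 measured kidney markers 6 were above 0 and 2 below, with a median of 0.22, and of 0.51 without P4T replicate 4. A second SLC12A1 probe set of still lower signal gave 0.37 ± 0.83. Of 8 erythroid markers 3 were above 0 and 5 below, with a median of -0.46, and 5 above and 3 below with a median of 0.08 without that array. Without P4T replicate 4 there was also 1 call among the kidney markers, UMOD, higher in E2T at 1.71 ± 0.67, and 1 among the lymphocyte markers, MS4A1, lower at -0.48 ± 0.21. Over all genes that fit called 0.994% higher and 0.721% lower.

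A list was drawn here from genes that the study names, chosen for unequal changes in its single treatments. Of these 26 genes 21 were measured by a named probe set. With all arrays 1 was called higher, EFEMP2, a fibulin of elastic fibres, at 1.01 ± 0.45, and 2 were called lower, IGFBP2 and the neural proteoglycan CSPG5, at -1.69 ± 0.59. Over all genes 0.579% were called higher and 1.14% lower. CSPG5 had 3.94, 5.11 and 6.38 in E2T and 5.65, 6.37 and 9.53 in P4T, the high P4T value being replicate 4. Without that array KCNJ15, a potassium channel, was also called higher at 1.97 and S100A10 lower, making 2 higher and 3 lower, beside 0.994% and 0.721% of all genes. As the study picked these genes on these same samples, the counts of the list are no independent evidence.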

How the data were processed

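Poly(A) RNA was labelled as biotinylated cRNA for the Bovine GeneChip, and the authors deposited linear signal intensity values made with MAS5, named in the submitters' processing notes. Each array had been scaled by the authors: the mean of the middle 96% of its signals was between 1000.29 and 1000.41. The table holds 24128 probe sets, of which 112 controls were left out, and no detection calls. The number of arrays limits the precision. The study set aside a P4T array and an array of the combined treatment for outlying signals. Whether either is among those deposited, as P4T replicate 4 or otherwise, is not given in the sources used here. The study also analysed more E2T arrays than the 7 used here.

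The log2 of the deposited signal was used as it stood. R 4.3.3 and limma 3.58.1 (lmFit, eBayes with an intensity trend) gave E2T minus P4T over the 14 arrays, adjusted by Benjamini-Hochberg over 24016 probe sets. The standard errors given are those of the moderated fit. Of these probe sets 13292 had 1 symbol, 86 several and 10638 none. The gene IDs were checked against RefSeq symbols of ARS-UCD2.0, which altered 0 names. For each symbol the brightest probe set on average stood for the gene. Lists were described by counts and medians without a test, and array measures were compared by exact permutation tests with Benjamini-Hochberg adjustment. The fit was tested on simulated data.

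Named genes were those with an adjusted p under 0.05 (0), the 15 with the smallest p per direction at 1.25-fold or more and a mean at or above the median gene, each list's called members or its member with the largest statistic, and a panel of 17 genes, of which 15 matched. Comparison, members and lists were chosen with earlier results of these data known. The alternatives were other scalings, filters, log offset, variance models, arrays in the fit, weights, a replicate block, array number terms, probe set means and arrays left out. Chosen after seeing the data were leaving out P4T replicate 4 with E2T replicate 3, and quantile normalization without P4T replicate 4. No sequence was used here.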

Additional observations from a re-analysis of the deposited data

Results flagged for a closer look

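In groups of 7, an array counted as far from the others where its gap to the nearest one, as a share of the group's range, passed Dixon's 95% limit. This held in 41 of 210 groups checked. Most groups were of named genes picked from these same values, some of them from the ranking without P4T replicate 4. Genes on 1 array are also not independent, so the count has no chance rate to be set against. P4T replicate 4 was the array in 24, E2T replicate 3 in 8, and other arrays in 9. The values below are that share of the range.

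P4T replicate 4 was highest in the hybridisation spike-ins (0.769), the array median (0.834), the GAPDH 3′ minus 5′ difference (0.656) and the erythroid marker level (0.684). It was the highest P4T array for SH2B1 (0.629), PHKA2 (0.637), CSPG5 (0.597) and IGF1 (0.727). It was the lowest for MAPK6 (0.773), SWAP70 (0.577), IGFBP2 (0.679), SERPINA6 (0.603), S100A10 (0.742), FUBP3 (0.685), DHRS4 (0.660) and UGDH (0.686). It was also the lowest for ANGPTL4 (0.738), IDH3A (0.756), IFIT5 (0.728), B2M (0.825), PGRMC1 (0.576), SERPINA7 (0.723), PRLR (0.870) and HSD17B2 (0.577).

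E2T replicate 3 was highest in the labelling spike-ins (0.655), the array median (0.846) and the GAPDH difference (0.623). It was the lowest E2T array for MYO1D (0.602), AIF1L (0.655), AIF1 (0.585), PGRMC1 (0.691) and SOCS2 (0.570).

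Among other arrays, E2T replicate 5 was highest for COMMD1 (0.582) and lowest for SLC12A1 (0.709). E2T replicate 4 was highest for LGALS8 (0.626), E2T replicate 7 lowest for ANGPTL4 (0.597) and E2T replicate 1 highest for NDUFA7 (0.624). E2T replicate 2 was highest for IDH3A (0.782) and lowest for SOD3 (0.674), P4T replicate 5 highest for SOD3 (0.687) and P4T replicate 1 lowest for GHR (0.611).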

How the results depend on the processing

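No setting tried gave a probe set with an adjusted p under 0.05, and the smallest adjusted p was 0.212, without P4T replicate 4 and E2T replicate 3 together. The counts of calls depended on scaling, filter and arrays. With quantile normalization 296 probe sets and 91 genes were higher, with equal array medians 317 probe sets and 97 genes were higher and 66 genes lower, and with array weights 322 probe sets and 106 genes were higher. A filter on the maximum signal of a probe set gave 105 higher and 261 lower, and the upper part by mean signal gave 50 and 87 probe sets and 27 and 38 genes; fewer probe sets were tested there. Array numbers 5 to 7 alone gave 331 probe sets higher. With both odd arrays left out 328 probe sets and 112 genes were higher, and with quantile normalization and P4T replicate 4 left out 347 and 99. Leaving out each array in turn gave 142 to 307 probe sets and 41 to 92 genes higher, and 254 to 788 probe sets and 66 to 225 genes lower, the ends without E2T replicate 2, P4T replicate 4 and E2T replicate 3 (the 92 and the 225 without E2T replicate 3). The cause was not tested. A replicate block gave 191 probe sets higher and 422 lower, and 61 genes higher and 116 lower. Whether same-numbered arrays came from the same cow is not in the labels. Of 7 same-numbered pairs 2 correlated above 0.1, and 2 of 7 E2T arrays correlated best with their own number. These values cannot settle whether the pairs shared a cow. The random replicate block gave 190 higher and 501 lower. ACTA2 turned to -0.17 with array numbers 5 to 7 only, and no other named gene that was called changed sign. Among named genes that were not called, a sign change was not counted as a reversal. For the 30 genes with the smallest p, 672 of 930 values kept their side of the call criteria, 244 lost the call and 13 gained it. Low signals without detection calls limit GCNT3, ESR1, SLC51A, RPL37 and CSPG5, and also STAB2, EPB42, SLC12A1, BCAT2 and ERO1A.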
